A study of Sus scrofa with 4 samples.

Results

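The miR-183 cluster is a group of 3 microRNAs whose precursors lie next to each other in the genome. They were examined in small RNA libraries from the hippocampus of newborn Rongchang piglets, a pig breed. The members, ssc-miR-183, ssc-miR-96-5p and ssc-miR-182 (below without the prefix for pig), were taken by name from the table of annotated pig miRNAs, where they are 3 of 321 after merging of repeated entries. In a second table, of sequences conserved across species, the families mir-183, mir-96 and mir-182 have 9, 4 and 12 rows, 25 of 2791 in all. All 3 annotated members passed a minimum of 10 CPM in at least 1 library, as did 251 annotated miRNAs. CPM stands for the reads of a miRNA relative to the scaled size of its library. The cluster was chosen by its ratios between these same libraries, most of all those that contain the control ventral one, so the values below describe it and no test was made of them.

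There were 4 libraries, 1 for each combination of treatment and region. They are the dorsal hippocampus of piglets given iron dextran (iron dorsal), the ventral hippocampus of those piglets (iron ventral), and the dorsal and the ventral hippocampus of piglets that received no injection (control dorsal and control ventral). The 8 piglets, 4 females and 4 males of 1 litter and labelled as wild type, were split into 4 with iron and 4 controls. Iron dextran, an injectable complex of iron with a sugar polymer, was given into muscle at 200 mg on days 3 and 4 after birth to cause oxidative stress. The sources used here do not give the age at sampling. Tissue was mixed within a group, so each library is a pool, and both regions of a treatment come from the same piglets. No library has a replicate. All intervals below are 95% intervals for counting error alone, and they compare libraries, not conditions.

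A microRNA guides the silencing machinery to messenger RNAs mainly through its seed, bases 2 to 8 from the 5′ end. The miR-183 cluster is transcribed as 1 primary transcript in mammals and is best known from sensory cells, the photoreceptors of the retina and the hair cells of the inner ear, and from sensory neurons. In the rat it is also abundant in the pineal gland. In the RefSeq annotation of Sscrofa11.1, a newer assembly than that named for these files, MIR183, MIR96 and MIR182 follow each other in this order on chromosome 18, with UBE2H before them and NRF1 after them.

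The mature sequences show how alike the members are and where their targeting letters differ. Those below are the rows of the conserved table that list pig among their species, with the seed in capitals.
miR-183: uAUGGCACugguagaauucacug
miR-96-5p: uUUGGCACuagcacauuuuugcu
miR-182: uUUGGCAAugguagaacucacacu
The seeds of miR-183 and miR-96-5p have the same base at 6 of 7 positions, those of miR-96-5p and miR-182 at 6, and those of miR-183 and miR-182 at 5. Over the whole length, seed included, the closest pair is miR-183 and miR-182, with the same base at 18 of 23 positions and a shared run of 8 bases, ugguagaa. miR-96-5p matches miR-183 at 13 and miR-182 at 12 of 23 positions.

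The libraries held 11396823 (iron dorsal), 12299706 (iron ventral), 12100995 (control dorsal) and 13839578 (control ventral) annotated miRNA reads, so that 3 reads, the limit that a count of 0 allows, equal 0.206 to 0.285 CPM. Neuronal miRNAs were abundant in each, as the label hippocampus implies: miR-124a stood at 33792 to 41937 CPM. In pooled tissue, fewer cells of a type and less RNA per cell cannot be told apart.

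The cluster was low in 3 libraries and high in 1. Its 3 members together had 139 CPM in iron dorsal, 128 CPM in iron ventral, 152 CPM in control dorsal and 449.8 CPM in control ventral. The control ventral library was thus the one that stood apart, while the other 3 lay within a narrow range.

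miR-182, the most read member, had 1202 reads in iron dorsal, 1203 in iron ventral, 1434 in control dorsal and 3225 in control ventral. This is 114, 98.2, 115 and 221 CPM, and it ranked 165th, 174th, 167th and 140th among the 251 measured miRNAs. miR-183 had 171 reads in iron dorsal, 201 in iron ventral, 248 in control dorsal and 1893 in control ventral. These are levels of 16.2, 16.4, 19.9 and 129.8 CPM, near the bottom of the measured miRNAs in 3 libraries (ranks 231, 231 and 223) and at rank 164 in control ventral. miR-96-5p, the member in which mutations cause progressive hearing loss in humans and mice, had 95 reads in iron dorsal, 165 in iron ventral, 208 in control dorsal and 1442 in control ventral. Its levels were 9.01, 13.5, 16.7 and 98.9 CPM. In each member control ventral was highest, and its counting interval did not reach that of any other library. Below it, control dorsal and iron dorsal had overlapping intervals for miR-183 and miR-182 but not for miR-96-5p.

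**Figure D1:**
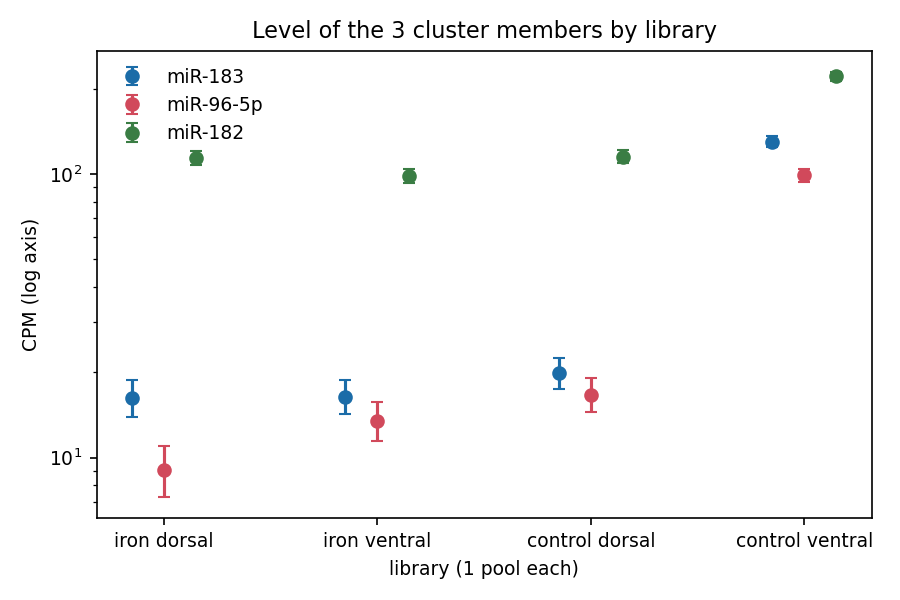
Level of each member in CPM (log axis) in the 4 libraries; points are single pooled libraries and bars are exact Poisson 95% intervals of the reads. All 3 members are highest in control ventral, and the gap to the other libraries is wide for miR-183 (16.2 to 19.9 CPM in the others, 129.8 CPM in control ventral) and narrow for miR-182 (98.2 to 115 CPM in the others, 221 CPM in control ventral).

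The first comparison of the design is iron against control in ventral tissue. The controls received no injection and each side is 1 pool. Iron, the injection itself and a difference between pools therefore cannot be told apart. The summed cluster was 3.51-fold lower in iron ventral than in control ventral (3.32 to 3.71). miR-183 was 7.91-fold lower (6.84 to 9.19), at 16.4 CPM in iron ventral and 129.8 CPM in control ventral. miR-96-5p was 7.34-fold lower (6.24 to 8.68), and miR-182 2.25-fold lower (2.11 to 2.41). All 3 members were at least 2-fold lower with an interval that excludes 1, as were 4 of 251 measured miRNAs (1.59%, and 1.99% in either direction); the fourth was miR-452. The cluster was chosen on this contrast, so nothing is read from that count. The median log2 ratio of the members was -2.88, against 0.02 over all measured miRNAs, of which the central 95% lay between -0.71 and 0.53.

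In dorsal tissue the iron and control libraries lay closer together. No member was at least 2-fold lower, nor was any other measured miRNA (0 of 251, 0%), while 3 of 251 (1.2%) were at least 2-fold higher, the same 3 in either direction. miR-182 stood at 114 CPM in iron dorsal and 115 CPM in control dorsal, a ratio of 0.991 (0.917 to 1.07). miR-183 had a ratio of 0.815 (0.667 to 0.995). miR-96-5p was 1.85-fold lower (1.45 to 2.39), with 9.01 CPM in iron dorsal and 16.7 CPM in control dorsal, which was the lowest ratio of the 251. With libraries scaled by total reads it passed 2-fold, at a ratio of 0.485 (0.376 to 0.621), and with the authors' RPM it was at 0.491. The median log2 ratio of the members was -0.29, against 0.01 over all measured miRNAs.

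Dorsal against ventral asks how the regions differ within a treatment. In iron piglets the members did not move together: miR-182 had a ratio of 1.16 (1.07 to 1.26), miR-183 of 0.989 (0.801 to 1.22) and miR-96-5p of 0.669 (0.514 to 0.866). Of the 251 measured miRNAs 1 (0.398%) was at least 2-fold lower in iron dorsal and 2 (0.797%) passed in either direction, none of them a member. In control piglets all 3 were lower in dorsal, with a fold of 6.52 for miR-183 (5.71 to 7.48), 5.93 for miR-96-5p (5.12 to 6.89) and 1.92 for miR-182 (1.81 to 2.05). Thus 2 of the 3 members passed 2-fold, where 4 of 251 (1.59%) were lower and 5 (1.99%) passed in either direction. With the families of the conserved table miR-182 passed too, at a ratio of 0.497. Control ventral is the reference of this comparison and of iron against control in ventral hippocampus, so the high level of 1 library enters both. The comparisons that do not contain control ventral are the dorsal iron one and the regional one in iron piglets, where no member reached 2-fold with TMM scaling.

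**Figure D2:**
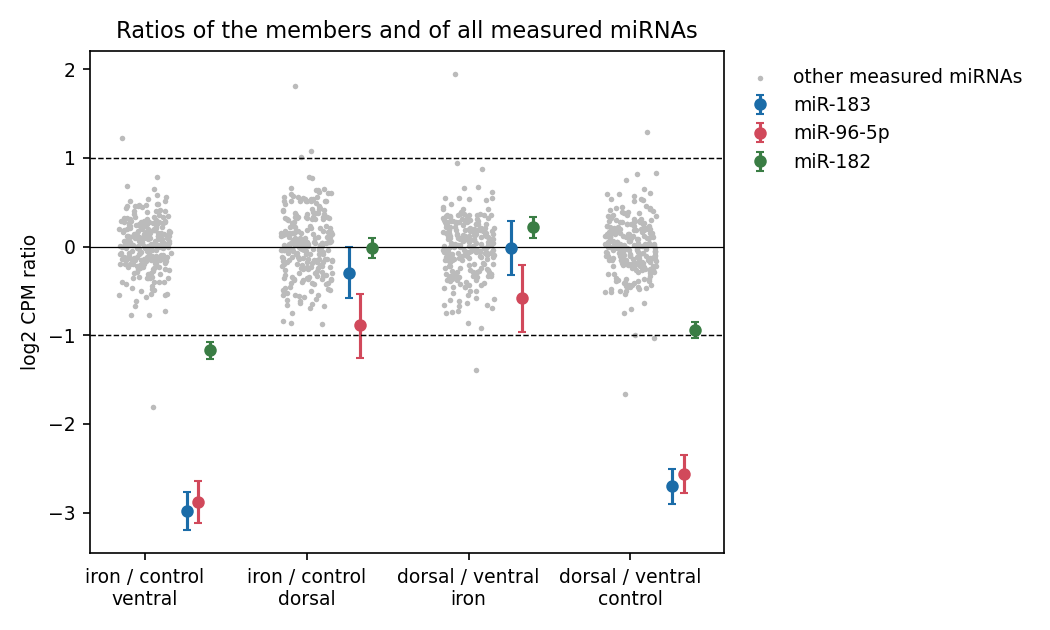
Log2 CPM ratios in the 4 comparisons; grey points are the other measured miRNAs, coloured points the cluster members with 95% counting intervals, and dashed lines mark 2-fold. miR-183 and miR-96-5p lie near -3 and below -2.5 in the comparisons that contain control ventral, and above -1 in the other comparisons.

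The stoichiometry of the members differed between control ventral and the rest. Shares are of reads, and reads of different miRNAs need not stand for equal numbers of molecules. miR-182 made up 81.9% of cluster reads in iron dorsal (exact binomial 95% interval 79.8 to 83.8), 76.7% in iron ventral (74.5 to 78.7), 75.9% in control dorsal (73.9 to 77.8) and 49.2% in control ventral (47.9 to 50.4). miR-183 held 11.6%, 12.8%, 13.1% and 28.9% in the same libraries, and miR-96-5p 6.47%, 10.5%, 11.0% and 22.0%. Iron dorsal also departed from iron ventral and control dorsal, by less. Its miR-182 interval lay above theirs. Its miR-96-5p interval (5.27 to 7.85) lay below those of iron ventral (9.04 to 12.1) and control dorsal (9.63 to 12.5). A share within a library does not depend on how libraries are scaled.

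**Figure D3:**
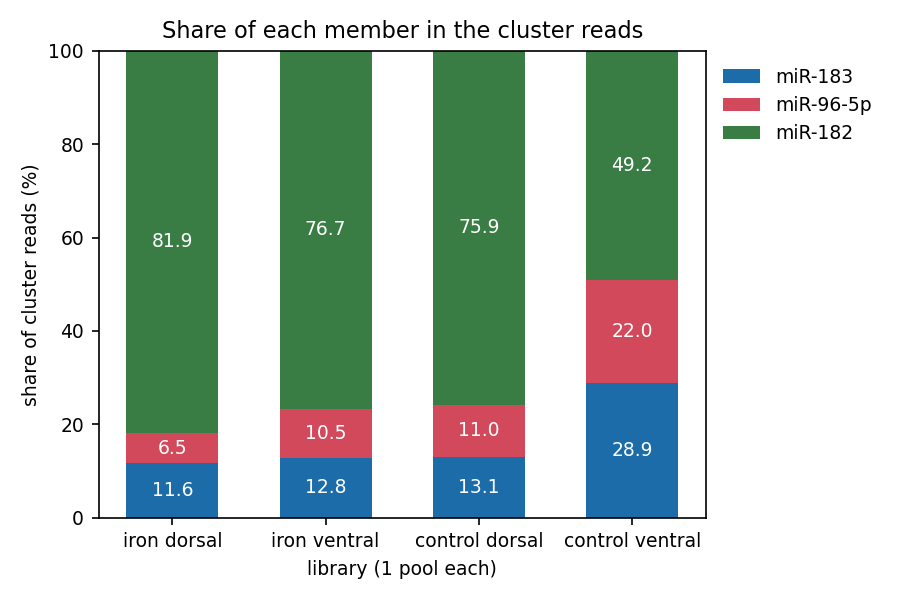
Share of each member in the reads of the cluster (%) for the 4 libraries. miR-182 takes 75.9% to 81.9% in 3 libraries and 49.2% in control ventral, where miR-183 and miR-96-5p take 28.9% and 22.0%.

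Set against each other, miR-183 and miR-96-5p stood in a near ratio except in iron dorsal, while both shifted against miR-182 in control ventral. For every 100 reads of miR-182 there were 14.2 of miR-183 in iron dorsal (12.05 to 16.7), 16.7 in iron ventral (14.3 to 19.4), 17.3 in control dorsal (15.1 to 19.8) and 58.7 in control ventral (55.4 to 62.1). For every 100 reads of miR-183 there were 82.1 of miR-96-5p in iron ventral (66.4 to 101.4), 83.9 in control dorsal (69.4 to 101.3) and 76.2 in control ventral (71.1 to 81.6). These intervals overlap. In iron dorsal there were 55.6 (42.8 to 71.8). Which of these members had more reads depended on the table. In the conserved table mir-96 had 149 reads and mir-183 137 in iron ventral, 189 and 170 in control dorsal, and 1306 and 1293 in control ventral. Only in iron dorsal did mir-96 have fewer there, 91 reads against 125. The log2 ratio of miR-96-5p was below that of miR-183 between iron dorsal and control dorsal, a difference of -0.59 (-1.04 to -0.15), and between iron dorsal and iron ventral, at -0.56 (-1.03 to -0.10). Between iron ventral and control ventral the log2 ratio of miR-183 was 1.81 below that of miR-182, a difference of -1.81 (-2.04 to -1.58), while miR-96-5p and miR-183 differed by 0.11 (-0.21 to 0.42).

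On the linear scale the members differed less from each other than their folds do. In iron ventral the level of miR-183 was 113 CPM below that in control ventral (107 to 119.8, from exact Poisson limits), that of miR-96-5p 85.4 CPM below (79.9 to 91.0) and that of miR-182 123 CPM below (113 to 132). In control dorsal the same differences from control ventral were 109.9 CPM for miR-183 (104 to 116), 82.2 CPM for miR-96-5p (76.6 to 87.9) and 106 CPM for miR-182 (96.4 to 116). miR-182, with the highest level in the other libraries, thus had the smallest fold and a difference in CPM whose interval overlapped that of miR-183.

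The table of conserved sequences gives the same reads again, so it adds no independent evidence, but it separates the arms of the precursors. Its 5p rows held 65.4% to 68.3% as many reads as the annotated row of miR-183, 90.3% to 95.8% for miR-96-5p and 88.9% to 91.4% for miR-182. The 3p arm, the strand of these precursors that is kept less often, is shown by the row with the most reads, which in both families is named for mouse.
miR-183-3p: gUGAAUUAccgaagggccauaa
miR-182-3p: gUGGUUCUagacuugccaacu
Rows of the 3p arm of mir-183 summed to 8 reads in iron dorsal, 6 in iron ventral, 6 in control dorsal and 11 in control ventral. The 3p arm thus made up 6.41% of mir-183 reads in iron dorsal (2.80 to 12.2), 4.37% in iron ventral (1.62 to 9.29), 3.54% in control dorsal (1.31 to 7.52) and 0.851% in control ventral (0.425 to 1.52). The 5p rows were 8.40-fold lower in iron ventral than in control ventral (7.01 to 10.1), whereas the 3p rows, with 6 and 11 reads, had a ratio of 0.635 (0.193 to 1.87). For mir-182 the 3p arm stayed between 0.0782% and 0.279% of reads, with at most 7 reads in a library. No mir-96 row was a 3p sequence.

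Some mir-183 rows start 1 base later than the row that lists pig, which moves the seed by 1 base. The longer of the 2 such rows, named for Chinese hamster, is shown with its own bases 2 to 8 in capitals.
miR-183, start 1 base later: aUGGCACUgguagaauucacug
Such rows held 20.2% of the mir-183 5p reads in iron dorsal (13.6 to 29.0), 14.4% in iron ventral (8.96 to 21.7), 13.1% in control dorsal (8.10 to 18.9) and 21.6% in control ventral (19.5 to 24.0). Many of the row values are fractions, and how the authors divided reads among overlapping rows is not stated in these sources, so these shares are approximate.

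Other families carry the seeds of miR-183 and miR-96-5p. Rows of the mir-263 family held the seed of miR-183 with 2.14 reads in iron dorsal, 5.29 in iron ventral, 36.8 in control dorsal and 7.55 in control ventral, which is 20.6% of that seed's reads in control dorsal and 0.746% in control ventral, and the seed of miR-96-5p in 3 rows with 5 to 10.1 reads a library. The mir-263 values for the miR-183 seed are all fractions, so they depend on how the authors divided reads among rows. Whether they stand for a separate pig miRNA was not tested. The mir-1271 family, whose row with the most reads is shown, has the miR-96-5p seed UUGGCAC at bases 2 to 8. The row shown is named for dog and matches miR-96-5p at 9 of 20 positions overall.
miR-1271: cUUGGCACcuaguaagcacu
Among all conserved rows, 15 have this seed. The mir-1271 rows held 77.3% of their reads in iron dorsal, 93.0% in iron ventral, 86.5% in control dorsal and 57.4% in control ventral, and the mir-96 rows 21.6%, 6.55%, 12.97% and 42.2%. As a level in the conserved table, all rows with the seed summed to 41.3 CPM in iron dorsal, 187 CPM in iron ventral, 118 CPM in control dorsal and 218 CPM in control ventral. Iron ventral was therefore 1.17-fold lower than control ventral in this seed (1.11 to 1.23), although its mir-96 part stood at 12.2 CPM in iron ventral and 92.0 CPM in control ventral, and iron dorsal was 2.85-fold lower than control dorsal (2.56 to 3.19). The annotated pig row of miR-1271 held only 6 reads in iron dorsal, 17 in iron ventral, 14 in control dorsal and 14 in control ventral, against 331, 2130, 1271 and 1789 in the conserved family. Rows with the miR-182 seed UUGGCAA were all of the mir-182 family.

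**Figure D4:**
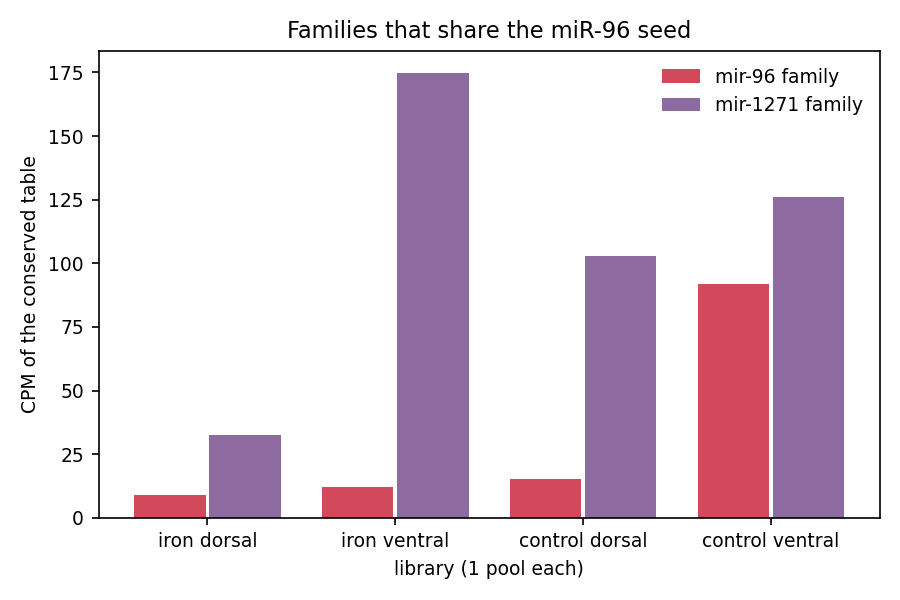
Level of the mir-96 and mir-1271 families, which share the seed UUGGCAC, in CPM of the conserved table for the 4 libraries. mir-96 is highest in control ventral (92.0 CPM), while mir-1271 is highest in iron ventral (174.8 CPM) and lowest in iron dorsal (32.4 CPM).

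Among annotated miRNAs, none of the others had a profile over the 4 libraries as close to the cluster as its own members. Likeness was measured as the Euclidean distance between log2 CPM values centred over the 4 libraries, from the mean profile of the 3 members, which those members therefore shape. The members themselves lay at 0.53 (miR-183), 0.70 (miR-96-5p) and 1.14 (miR-182). The nearest of the other 248 were miR-190b at 1.44, miR-136 at 1.44, miR-34c at 1.47, miR-153 at 1.48 and miR-129a-3p at 1.51, with a median of 2.05. miR-190b, at 5.41 CPM in iron dorsal, 9.06 CPM in iron ventral, 7.70 CPM in control dorsal and 11.9 CPM in control ventral, passed the minimum of 10 CPM through control ventral alone, so that its highest library was fixed by the minimum. The other 4 were also highest in control ventral, by small margins: miR-34c, a miRNA of ciliated cells, stood at 4237 CPM in iron dorsal, 7075 CPM in iron ventral, 6840 CPM in control dorsal and 9350 CPM in control ventral.

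The mir-8 family of the conserved table, which holds the epithelial miR-200 group, was like the cluster far higher in control ventral than elsewhere. The miR-200 group comprises miR-200a, miR-200b, miR-200c, miR-141 and miR-429, known for keeping cells in an epithelial state and present in olfactory and endocrine tissue. The family has 37 rows, some under other names, and its reads exceed those of these 5 together in every library. The family summed to 145 reads in iron dorsal, 203 in iron ventral, 224 in control dorsal and 2150 in control ventral, which is 14.2, 16.7, 18.1 and 151 CPM of that table. It was 9.09-fold lower in iron ventral than in control ventral (7.87 to 10.6), and 8.36-fold lower in control dorsal than in control ventral (7.28 to 9.63). Among 188 families at 10 CPM or more, its distance to the cluster profile, 0.81, was shorter than that of mir-182 itself, 1.09, and the next family, mir-33, lay at 1.32. All 5 named members had their highest level in control ventral. miR-200a ranged from 3.84 to 9.22 CPM in the other 3 libraries, against 80.1 CPM in control ventral, and miR-200b from 2.14 to 3.20 CPM, against 42.4 CPM. miR-141 ranged from 1.65 to 2.27 CPM in the other 3, against 16.01 CPM in control ventral, miR-200c from 0.895 to 2.17 CPM, against 6.57 CPM, and miR-429 from 0.164 to 0.294 CPM, against 4.65 CPM. For iron against control in dorsal tissue miR-200a also passed 2-fold, at a ratio of 0.414 (0.280 to 0.600). miR-200c passed it for dorsal against ventral in iron piglets, at 0.413 (0.170 to 0.910). No other ratio of the 5 passed in these comparisons, nor did any cluster member with TMM scaling. The part of such cells in the levels of the cluster was not tested.

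**Figure D5:**
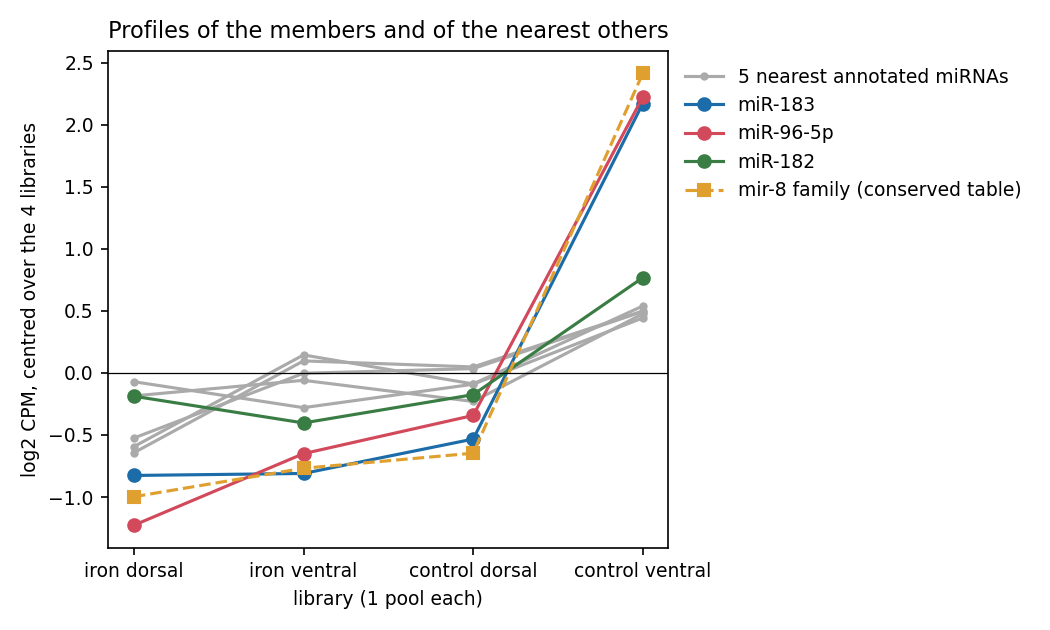
Log2 CPM centred over the 4 libraries for the members, the mir-8 family of the conserved table and the 5 nearest annotated miRNAs; lines join the values of 1 miRNA or family and imply no order. The mir-8 family runs with miR-183 and miR-96-5p, while miR-182 lies between them and the nearest annotated miRNAs in control ventral and iron ventral. In iron dorsal miR-182, at -0.19, lies above miR-190b, miR-136 and miR-34c, at -0.59, -0.53 and -0.64.

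Lists of cell type markers were read from the annotated table, and members it lacks from the conserved one. The epithelial list of 7 names had 2 annotated members, miR-429 and miR-205, neither measured at 10 CPM. Its sum was 1.71 CPM in iron dorsal, 2.12 CPM in iron ventral, 3.53 CPM in control dorsal and 6.65 CPM in control ventral. miR-429 had 3, 2, 3 and 65 reads in these libraries, while miR-205, a marker of stratified epithelium, had 15, 24, 41 and 32. miR-429 was thus 27.3-fold lower in iron ventral than in control ventral (7.26 to 230). It was 18.5-fold lower in control dorsal than in control ventral (6.06 to 92.1). miR-205 was 2.31-fold lower in iron dorsal than in control dorsal (1.25 to 4.50). In the conserved table miR-203, known from skin, was at 87.2 to 105 CPM across the libraries. Of the 8 lists, 21 distinct annotated miRNAs were measured, and none of these was at least 2-fold different in any comparison. Over all 251 measured miRNAs the share in either direction was 0.797% to 1.99%, so nothing is read from that count. Their log2 ratios ran from -0.77 to 0.88, and both ends belong to miR-7, a miRNA of neurons and endocrine cells, with 53111 CPM in iron dorsal, 28897 CPM in iron ventral, 35975 CPM in control dorsal and 49421 CPM in control ventral. miR-7 was the measured member of the pituitary and endocrine list. Of that list miR-375, an endocrine miRNA that is read from the conserved table, stood at 43.5 CPM in iron dorsal, 87.7 CPM in iron ventral, 99.9 CPM in control dorsal and 126 CPM in control ventral. It passed 2-fold for iron against control in dorsal tissue at a ratio of 0.435 (0.390 to 0.486). For dorsal against ventral in iron piglets it passed at 0.496 (0.443 to 0.554).

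The measured annotated members of the other lists lay within these limits. The choroid plexus miRNA miR-204 was at 166 CPM in iron dorsal, 179 CPM in iron ventral, 197 CPM in control dorsal and 251 CPM in control ventral. miR-1298 and miR-448 of the same list, from the conserved table, were at 52.2 and 19.0 CPM in iron dorsal, 102 and 23.5 CPM in iron ventral, 71.5 and 19.6 CPM in control dorsal and 97.9 and 26.3 CPM in control ventral. The remaining name of that list, miR-211, had 1 read in iron dorsal, 5 in iron ventral, 5 in control dorsal and 11 in control ventral. Of the ciliated list, the conserved miR-34b was at 259 CPM in iron dorsal, 542 CPM in iron ventral, 547 CPM in control dorsal and 679.7 CPM in control ventral, past 2-fold for iron against control in dorsal tissue at a ratio of 0.474 (0.453 to 0.496) and for dorsal against ventral in iron piglets at 0.478 (0.457 to 0.501). miR-449b, at 2.15 to 8.24 CPM, had ratios of 0.280 (0.168 to 0.449) and 0.345 (0.205 to 0.561) in these comparisons. miR-449a was at 67.0 to 142 CPM. The erythroid list, led by miR-451, miR-144 and miR-486, summed to 869.9 CPM, 1026 CPM, 829 CPM and 1068 CPM in the same order of libraries. The neuron-enriched list, led by miR-124a, miR-128 and miR-218, had 9 measured members and a median log2 ratio of 0.01 for iron against control in ventral hippocampus. The oligodendrocyte pair miR-219b-3p and miR-338 had a median of 0.44 there, against 0.02 over all measured miRNAs. The muscle list, led by miR-499-5p, miR-1 and miR-133a-3p, had 4 measured members and a median of 0.34. Its annotated members below the minimum were miR-208b, miR-499-3p, miR-133b and miR-133a-5p. They stood at 2.20, 2.12, 3.67 and 3.18 CPM in iron ventral, and at 5.21, 4.11, 4.18 and 1.51 CPM in control ventral. For iron against control in dorsal tissue the medians were -0.24 for the neuron-enriched list, -0.30 for the oligodendrocyte pair and -0.25 for muscle. For dorsal against ventral the medians of these lists were -0.19, -0.65 and -0.22 in iron piglets. In control piglets they were 0.10, 0.10 and 0.34. The part of these cells in the levels of the cluster was not tested.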

How the data were processed

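The 4 pooled small RNA libraries were described from 3 deposited tables of annotated, conserved and predicted miRNAs. The submitters' processing notes name cutadapt 1.2.2 and the pig builds Sscrofa 10.2 and susScr 3; neither the aligner nor the counting is stated there. Per the file headers the authors deposited reads, which are estimated counts because many are fractions, and RPM values. Reads were rounded to whole numbers. Annotated rows of identical precursors whose reads differed by no more than 0.1% were merged (326 rows became 321). miRNAs at 10 CPM or more in at least 1 library were kept, and libraries were scaled with TMM (edgeR 4.0.16). CPM ratios carry exact conditional binomial (Clopper-Pearson) intervals, shares exact binomial and levels exact Poisson intervals. Counted as different were ratios of 2-fold or more with an interval that excluded 1. The intervals were checked on simulated Poisson counts, the model that they assume. That check does not cover estimated counts, rounding, TMM scaling or differences between pools. Amplified reads are not independent molecules. Families of the conserved table were scaled in the same way. With 1 library a group no test was made.

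The members and lists were chosen with earlier results of these data known. Named miRNAs were the members, those with a member's seed, the 5 nearest profiles (0.5 reads were added before logs), and of each marker list those counted and the 3 of highest mean; the comparison of conserved families, of arms and of shifted starts was added after values were seen. The planned sequence match to predicted miRNAs was not made, since that table holds no sequences. Alternatives were scaling by total reads, DESeq2 1.42.0 size factors or the authors' RPM, no merging, other minimums, no rounding and the conserved table. Not used here were 8 RPM columns of the other tables.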

Additional observations from a re-analysis of the deposited data

Results flagged for a closer look

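miR-182 was higher in dorsal than in ventral hippocampus of iron piglets, with a log2 ratio of 0.22 (a ratio of 1.16 with TMM scaling, and of 1.08 with total reads, where the interval of 0.995 to 1.17 includes 1), and lower in dorsal than in ventral of control piglets, at -0.94. Each value rests on 1 pooled library a group, so whether the treatments differ in this was not tested.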

How the results depend on the processing

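Of 120 recomputed ratios of the cluster and its members, 114 stayed within their counting interval, 6 moved and 0 reversed a direction whose interval excluded 1. Among the 120 were ratios without rounding, which could barely move, and ratios scaled without the control ventral library, which were identical. Both kinds raise the number that stayed without telling of stability. The summed cluster ratio with total reads was 0.269 for iron against control in ventral, 0.825 in dorsal (0.836 with the authors' RPM) and 1.01 for dorsal against ventral in iron piglets. For miR-182 the iron ratio in dorsal hippocampus was 0.890 with total reads and 0.902 with RPM. Against TMM, total reads shift all ratios by -0.16 (log2) for iron against control in dorsal hippocampus and by -0.11 for dorsal against ventral in iron piglets, and RPM shifts those for iron in dorsal by -0.14. With the conserved table miR-182 stood at 1.01 there and miR-183 at 1.09 for dorsal against ventral in iron piglets, the only ratios on the other side of 1, and their intervals included 1. In the conserved table miR-183 took 9.70% (iron dorsal), 10.1% (iron ventral), 10.4% (control dorsal) and 23.3% (control ventral) of cluster reads, miR-182 79.0% (iron ventral), 78.1% (control dorsal) and 53.2% (control ventral), and miR-96-5p 23.5% (control ventral).

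Without a minimum level, 9 and 6 miRNAs were at least 2-fold different for iron against control in ventral and dorsal hippocampus, and 4 and 11 for dorsal against ventral in iron and control piglets. With a minimum of 100 CPM there were 0 in the dorsal iron comparison, 0 for the regions in iron piglets and 3 in control piglets. Scaling without the control ventral library, chosen after seeing the data, gave identical ratios for the comparisons that do not contain it, so it says nothing on stability. No paired analysis was possible because no ratio here comes from a test; an additive fit of region and treatment over the 4 libraries was not made. Depth limits the 3p arms, at 11 reads or fewer.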

Other observations

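Among 112 predicted miRNAs at 10 CPM or more in a library, 2 had profiles as close to the cluster as its own members. Number 333 lay at a distance of 0.41, with 22 reads in iron dorsal, 19 in iron ventral, 27 in control dorsal and 154 in control ventral. Number 668 lay at 0.70, with 173, 359, 286 and 1117 reads in the same libraries, and the next, number 46, at 1.19. Number 333, at 2.09, 1.55, 2.17 and 10.6 CPM in this order, passed the minimum through control ventral alone, so its likeness is in part set by that minimum. The table gives no sequence for them.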
